A study of Mus musculus with 8 samples.

Results

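Polyamine synthesis genes and antizymes were followed in mouse testis RNA through 10 genes: the enzymes Odc1, Amd1, Srm, Sms and Sat1, the antizymes Oaz1, Oaz2 and Oaz3, and the antizyme inhibitors Azin1 and Azin2. Each was found by its symbol among the 57690 rows of the deposited table, and all 10 were present. Mice had received either an antibody against PD-L1, a surface protein that restrains T cells through the receptor PD-1, or an IgG2b isotype antibody, written IgG here, as the control. All mice were C57BL/6, aged 8 weeks, and got 2 intraperitoneal injections of 200 µg, with testes taken 7 days after treatment. Each group has 4 libraries, and the labels do not say whether each is a different animal. The p-values therefore describe the variation among these libraries, part or all of which may be technical. Levels are in TPM, a transcript abundance scaled to gene length and library total, which keeps no read depth.

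Polyamines are small positively charged molecules that bind nucleic acids and that dividing and differentiating cells make from ornithine. ODC1 makes putrescine from ornithine, and spermidine synthase and spermine synthase then add aminopropyl groups that come from decarboxylated S-adenosylmethionine. Antizymes bind ODC, and some of them mark it for breakdown by the proteasome. Antizyme inhibitors bind antizymes in place of ODC, and antizyme translation needs a ribosomal frameshift that polyamines favour. In the testis antizyme 3, the product of Oaz3, is known as a germ cell form made in spermatids.

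The frameshift sites are shown because they are what the 3 antizyme transcripts have in common, and because they show how far a pseudogene matches Oaz1. Each line gives 30 bases of the transcript, 5′ to 3′, with a TGA in capitals. In Oaz1, Oaz2 and Oaz3 this is the codon at which the first reading frame stops, and their annotated coding sequences leave out its T. Oaz1-ps has no annotated coding sequence, and its capitals mark only the same letters.
Oaz1: gggcctcggtggtgctccTGAtgtccctca
Oaz2: gggcctctgtggtgctccTGAtgcccctca
Oaz3: tcctgcctccagtgctccTGAgtccctagg
Oaz1-ps: gggcctcggtggtgctccTGAtgtccctca

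These were read from GENCODE release M21 transcripts on GRCm38, the assembly also called mm10. The Oaz1 site lies at chr10:80828277-80828306 on the plus strand, the Oaz2 site at chr9:65686254-65686283 on the plus strand, and the Oaz3 site at chr3:94436023-94436052 on the minus strand. Each lies within an exon of the transcript it was read from. Oaz1 and Oaz2 were identical at 28 of 30 bases, whereas Oaz3 matched Oaz1 at 13 and Oaz2 at 15. The processed pseudogene Oaz1-ps, with its window at chr17:17345925-17345954 on the minus strand, matched Oaz1 at 30 of 30 bases. That window was found by a search for the Oaz1 bases around the TGA, so those matches were fixed in advance. All counts compare bases at the same place, without gaps, in windows set by the TGA, which every pair therefore shares.

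The tissue label was checked against testis markers: the protamine and transition protein genes Prm1, Prm2, Tnp1 and Tnp2 of late spermatids had the highest mean TPM of all rows. Prm1 averaged 13478 ± 1160 TPM in anti-PD-L1 libraries and 15628 ± 1290 TPM in IgG libraries (SD, n = 4 each). A pair of libraries stood apart. Anti-PD-L1 1 and IgG 4 had 21083 and 21116 genes at 1 TPM or more, against 19494 to 19665 in the other 6, and their median correlations with the other libraries over genes were 0.957 and 0.962, against 0.971 to 0.976. Values without these libraries are therefore given as well. In bulk RNA, fewer cells of a type and less RNA per cell cannot be told apart. Differences are in log2(TPM + 1), and this scale shrinks the changes of genes with low values.

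Oaz3 (chr3:94432414-94443915, minus strand) was by far the most abundant of the 10 transcripts. It measured 1622.8, 1928.4, 1881.2 and 1820.7 TPM in anti-PD-L1 libraries, against 1924.3, 2069.5, 1988.5 and 1789.6 TPM in IgG libraries. The groups overlapped, with the lowest value in anti-PD-L1 1 and the highest in IgG 2. Means were 1813 ± 134 TPM in anti-PD-L1 libraries and 1943 ± 118 TPM in IgG libraries (SD, n = 4 each), which placed Oaz3 at rank 34 of the 57690 rows. The log2 difference was -0.10 (SE 0.0653, 95% interval -0.25 to 0.05) with an adjusted p = 0.999 by limma and a two-sided exact permutation p = 0.229. That interval runs from a fold of 0.842 to 1.03. The smallest p that an exact test of 4 against 4 libraries can give is 0.0286. Without anti-PD-L1 1 the difference was -0.048, and without both libraries that stood apart it was -0.087 (adjusted p = 0.592).

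**Figure D1:**
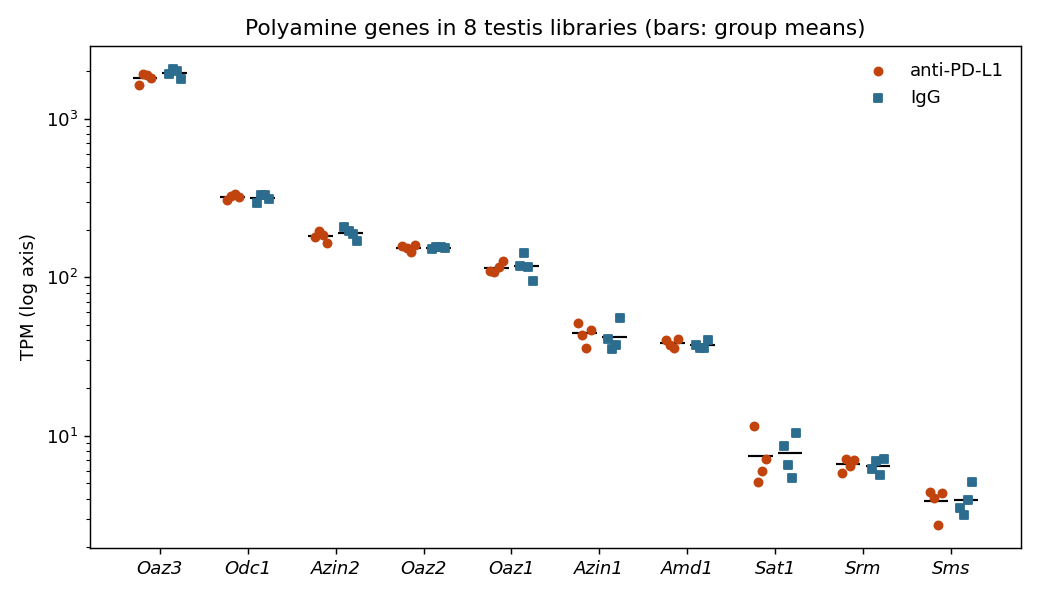
TPM of the 10 genes on a log axis, with a point for each library of the anti-PD-L1 group (left of each pair) and of the IgG group (right) and a bar at each mean. Oaz3 lies between 1623 and 2069.5 TPM and Sms, the lowest, between 2.74 and 5.14 TPM, and in every gene the groups overlap.

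Oaz1 and Oaz2, the antizymes that most tissues make, were much less abundant than Oaz3. The TPM of Oaz3 per TPM of Oaz1 was 15.9 ± 1.57 in anti-PD-L1 libraries and 16.7 ± 1.8 in IgG libraries, and with Oaz1 summed with its pseudogene Oaz1-ps it was 8.62 ± 0.949 in anti-PD-L1 libraries and 8.82 ± 0.379 in IgG libraries (SD, n = 4 each). Oaz2 measured 157.4, 152.0, 143.5 and 160.0 TPM in anti-PD-L1 libraries, against 150.7, 154.3, 156.2 and 153.1 TPM in IgG libraries. It was the steadiest of the genes, with a coefficient of variation of 3.27% over the 8 libraries, and both its lowest and its highest values came from anti-PD-L1 libraries. Its log2 difference of -0.0047 (SE 0.0461, 95% interval -0.11 to 0.10) was the smallest of the 10. Oaz1 measured 109.2, 107.8, 115.4 and 126.3 TPM in anti-PD-L1 libraries, against 118.1, 141.5, 116.4 and 94.4 TPM in IgG libraries. The IgG group held both its extremes, and the log2 difference was -0.024 (SE 0.113, 95% interval -0.28 to 0.23). Oaz3 made up 87.1 ± 1.1% of the summed antizyme TPM in anti-PD-L1 libraries and 87.8 ± 0.195% in IgG libraries, and with Oaz1-ps counted in the sum 83.2 ± 1.45% in anti-PD-L1 libraries and 83.8 ± 0.45% in IgG libraries (SD, n = 4 each).

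The Oaz1 value depends on how reads were shared with the pseudogene. Of the 996 words of 50 bases in the Oaz1 transcript, 586 also occur in Oaz1-ps, which is 58.8%. Oaz1-ps was listed at 92.0, 107.9, 76.5 and 110.8 TPM in anti-PD-L1 libraries, against 112.1, 94.0, 97.8 and 108.0 TPM in IgG libraries, close to the level of Oaz1 itself. The sum of Oaz1 and Oaz1-ps averaged 211 ± 19.7 TPM in anti-PD-L1 libraries and 221 ± 15.2 TPM in IgG libraries (SD, n = 4 each), with a log2 difference of -0.0625 (adjusted p = 0.999 by limma). How the authors assigned such reads is not given in the sources used here, so the split between gene and pseudogene is uncertain. If each shared read was kept and given to a single gene, the split alters the sum only through the deposited lengths. These are 1044 bases for Oaz1 and 685 bases for Oaz1-ps. If shared reads were discarded or counted for both genes, the sum itself is affected.

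Of the other members, Amd1 shared 87.6% of its 50-base words with other annotated genes, chiefly its copy Amd2, which was listed at a mean of 0.298 TPM over the 8 libraries. Odc1 shared 42.2%, with annotated genes at no more than 2.19 TPM on average. Of these, AW146154 at 0.716 TPM matched on the opposite strand. Sms shared 28.7%, with Sms-ps at 2.02 TPM. Oaz3 shared 28.1% with Tdrkh on the opposite strand, which averaged 33.1 TPM, far below Oaz3. Azin1 shared 6.43% with its antisense gene Gm49077, which averaged 20.1 TPM. Whether counting used the strand is not given. Without it, reads from these opposite-strand stretches of Oaz3, Azin1 and Odc1 cannot be told from those of the partner gene. Azin2 shared 0% of its words with any other annotated gene. Srm, Sat1 and Oaz2 shared 2.4%, 5.08% and 12.9%. The levels of Amd1, Odc1 and Sms, and ratios among them, therefore also depend on how shared reads were assigned. So do the listed levels of their copies, Amd2 among them.

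Odc1 (chr12:17544794-17551505, plus strand), which encodes the enzyme that makes putrescine and is the target of the antizymes, was the next most abundant gene. It measured 305.9, 326.7, 335.9 and 322.3 TPM in anti-PD-L1 libraries, against 296.0, 332.8, 329.8 and 310.4 TPM in IgG libraries. The groups overlapped, with the highest value in anti-PD-L1 3 and the lowest in IgG 1, and the coefficient of variation over all 8 libraries was 4.47%. Means were 323 ± 12.6 TPM in anti-PD-L1 libraries and 317 ± 17.3 TPM in IgG libraries (SD, n = 4 each), with a log2 difference of 0.025 (SE 0.0514, 95% interval -0.09 to 0.14, exact permutation p = 0.629). A fold outside 0.939 to 1.10 lies beyond that interval.

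Amd1, which encodes the enzyme that decarboxylates S-adenosylmethionine, averaged 38.6 ± 2.35 TPM in anti-PD-L1 libraries and 37.3 ± 2.16 TPM in IgG libraries (SD, n = 4 each). Its values spanned 35.7 to 40.8 TPM over all 8 libraries. The synthases that use its product were much lower. Srm, spermidine synthase, lay between 5.82 and 7.18 TPM in anti-PD-L1 libraries and between 5.63 and 7.12 TPM in IgG libraries. Sms, spermine synthase, lay between 2.74 and 4.39 TPM in anti-PD-L1 libraries and between 3.16 and 5.14 TPM in IgG libraries. The log2 differences were 0.046 (SE 0.0669) for Amd1, 0.027 (SE 0.109) for Srm and -0.011 (SE 0.172) for Sms. Odc1 transcripts outnumbered those of Srm by a mean ratio of 49.1 ± 3.89 in anti-PD-L1 libraries and 49.5 ± 6.4 in IgG libraries, and those of Amd1 by 8.4 ± 0.81 in anti-PD-L1 libraries and 8.53 ± 0.831 in IgG libraries (SD, n = 4 each).

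Sat1, the acetyltransferase that starts the export and breakdown of spermidine and spermine, varied most. It measured 11.58, 5.14, 6.03 and 7.12 TPM in anti-PD-L1 libraries, against 8.63, 6.57, 5.45 and 10.42 TPM in IgG libraries. In each group the highest value belonged to the library that stood apart. The log2 difference was -0.07 (SE 0.251, 95% interval -0.64 to 0.50), an interval from a fold of 0.642 to 1.41, and the coefficient of variation was 31.1%. Without anti-PD-L1 1 the difference was -0.28, and without IgG 4 it was 0.07.

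The antizyme inhibitors resemble ODC in sequence but do not make putrescine, and Azin2 is known for expression in testis and brain. Azin2 measured 180.2, 196.6, 183.8 and 165.1 TPM in anti-PD-L1 libraries, against 207.9, 194.6, 188.0 and 169.0 TPM in IgG libraries. Azin1 measured 51.5, 43.2, 35.9 and 46.7 TPM in anti-PD-L1 libraries, against 40.9, 35.3, 37.4 and 55.1 TPM in IgG libraries. Replicate 4 was the lowest of its group for Azin2 in both groups, and Azin1 was highest in anti-PD-L1 1 and IgG 4, the libraries that stood apart. Azin2 made up 80.3 ± 2.94% of summed inhibitor TPM in anti-PD-L1 libraries and 81.8 ± 4.26% in IgG libraries (SD, n = 4 each). The log2 differences were -0.064 for Azin2 (SE 0.075, 95% interval -0.23 to 0.11) and 0.079 for Azin1 (SE 0.152, 95% interval -0.27 to 0.42).

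**Figure D2:**
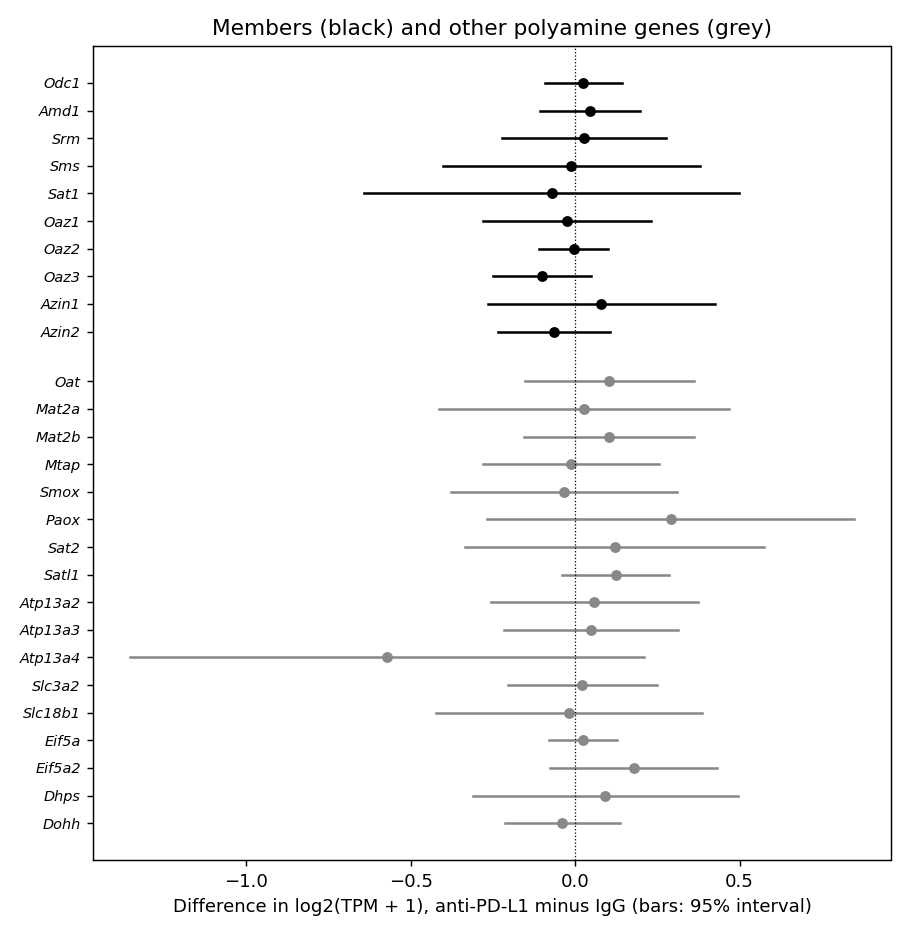
Log2 differences of TPM + 1, anti-PD-L1 minus IgG, as points with 95% intervals from limma, for the 10 genes in black and for other tested polyamine genes in grey. All 10 black intervals include 0, and the widest of them is that of Sat1, from -0.64 to 0.50.

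All 10 genes passed the filter of a mean of at least 1 TPM. No member passed an adjusted p of 0.05 (adjusted p = 0.999 by limma for each of the 10), and no gene did among the 20343 tested, which is 0%. At an unadjusted p under 0.05, 0 of the 10 members passed by limma, beside 1063 genes or 5.23% of those tested. The groups did not overlap in 0 members, beside 609 genes or 2.99%. Of the 10 differences, 4 were above 0 and 6 below, with a median of -0.008, and the median of all genes tested was 0.0257. The smallest exact permutation p among the members was that of Oaz3, given above.

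The order of levels was Oaz3, Odc1, Azin2, Oaz2, Oaz1, Azin1, Amd1, Sat1, Srm and Sms. The step below Oaz3 was 5.87-fold, that between Oaz1 and Azin1 was 2.68-fold, and that between Amd1 and Sat1 was 4.98-fold. Azin1 and Amd1 overlapped in range, with Azin1 the higher in 7 of 8 libraries, and Sat1 and Srm overlapped, with Sat1 the higher in 4 of 8. The ranges of every other pair of neighbours were separate over all 8 libraries, though those of Oaz2 and Oaz1 only just, at 143.5 and 141.5 TPM. The place of Oaz1 turns on the split with Oaz1-ps: their sum lay between 192 and 237 TPM, above the highest Oaz2 value of 160.0 TPM, and its mean of 216 TPM was above the Azin2 mean of 186 TPM.

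Ratios within a library set antizyme RNA beside the RNA of its target, pooled over the cells of the testis. Protein was not measured. Oaz3 transcripts per Odc1 transcript numbered 5.31, 5.90, 5.60 and 5.65 in anti-PD-L1 libraries, against 6.50, 6.22, 6.03 and 5.76 in IgG libraries. The groups overlapped through anti-PD-L1 2, which lay above IgG 4. Means were 5.61 ± 0.245 in anti-PD-L1 libraries and 6.13 ± 0.311 in IgG libraries (SD, n = 4 each). IgG 4 is a library that stood apart and the only IgG library that overlapped, and leaving it out was chosen after seeing the data. Without it the values ran from 5.31 to 5.90 in anti-PD-L1 libraries and from 6.03 to 6.50 in IgG libraries. That separation follows from the choice of the library left out, so nothing is drawn from it. Anti-PD-L1 1, which also stood apart and held the lowest value, was kept in that range. Without both libraries that stood apart the means were 5.72 ± 0.162 in anti-PD-L1 libraries and 6.25 ± 0.237 in IgG libraries (SD, n = 3 each). The ratio was not tested. The summed Oaz1 and Oaz2 per Odc1 was 0.831 ± 0.0574 in anti-PD-L1 libraries and 0.855 ± 0.0521 in IgG libraries. Azin2 per Azin1 was 4.18 ± 0.793 in anti-PD-L1 libraries and 4.67 ± 1.09 in IgG libraries. Without both libraries that stood apart these ratios were 0.818 ± 0.0622 in anti-PD-L1 libraries and 0.875 ± 0.0427 in IgG libraries for Oaz1 and Oaz2 per Odc1, and 4.40 ± 0.8 in anti-PD-L1 libraries and 5.21 ± 0.262 in IgG libraries for Azin2 per Azin1.

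**Figure D3:**
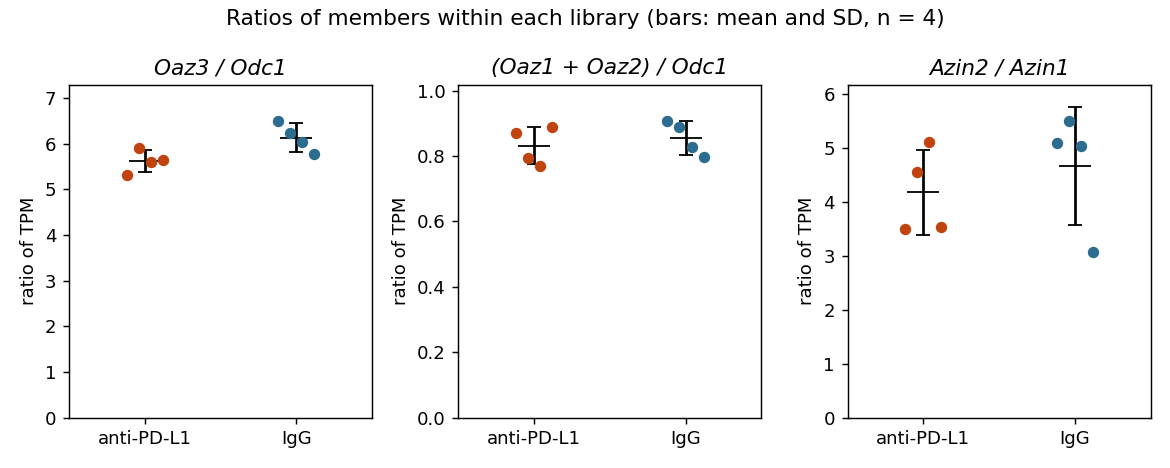
Ratios of TPM within each library for Oaz3 per Odc1, summed Oaz1 and Oaz2 per Odc1, and Azin2 per Azin1, with a point for each library, anti-PD-L1 left and IgG right, and bars for the mean and SD. Oaz3 per Odc1 averages 5.61 in anti-PD-L1 libraries and 6.13 in IgG libraries, with the groups overlapping.

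For comparison with Oaz3, 11 markers of elongating spermatids, Oaz3 left out, were set beside it. All 11 had differences below 0, beside 8483 of all 20343 genes tested, with a median of -0.13. None passed an adjusted p of 0.05. Beside 5.23% of all genes tested, 2 of these markers passed an unadjusted p under 0.05 by limma. Those were Prm1 at -0.21 and Tnp1 at -0.21, a transition protein that averaged 12142 ± 639 TPM in anti-PD-L1 libraries and 14073 ± 1360 TPM in IgG libraries. Summed TPM of the list ran from 60983 to 69290 in anti-PD-L1 libraries and from 63839 to 79630 in IgG libraries. Of earlier germ cell markers, 11 of 12 spermatocyte genes (median 0.097) and 9 of 12 round spermatid genes (median 0.064) had differences above 0. So did 6 of 11 tested spermatogonium genes (median 0.079), beside 11860 of all 20343 genes tested. Each of these earlier lists held 1 gene that was higher at an unadjusted p under 0.05 by limma and 0 that were lower. The part of these cells in the Oaz3 values was not tested. Oaz3 per Prm1 was 0.135 ± 0.0171 in anti-PD-L1 libraries and 0.125 ± 0.0072 in IgG libraries, and overlapped. Ggn, a germ cell gene whose product binds antizyme 3, averaged 253 ± 9.01 TPM in anti-PD-L1 libraries and 264 ± 29.8 TPM in IgG libraries.

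By Pearson's r of log2(TPM + 1) over the 8 libraries, the genes most like Oaz3 among 7882 candidates were Cdc37 (0.970), Odf1 (0.967), Acot7 (0.956), Sord (0.956) and Gsg1 (0.955). Odf1 encodes an outer dense fibre protein of the sperm tail. For Odc1 they were Pnpla2 (0.977), Poc1b (0.976), Rnf19b (0.974), Brap (0.971) and Bpi (0.970). These are descriptions of shared variation over 8 libraries with a common scaling, picked as the highest of many.

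**Figure D4:**
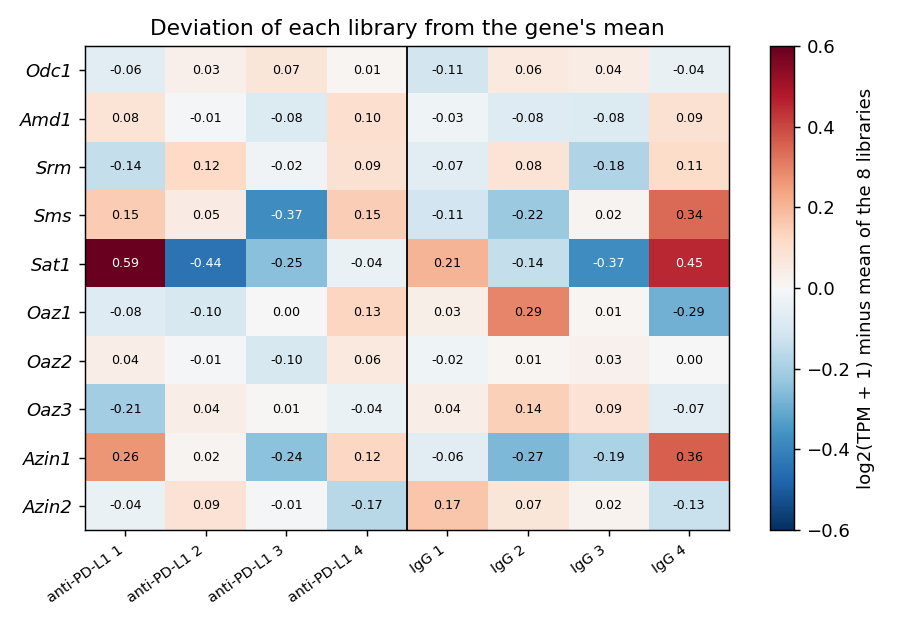
Heat map of log2(TPM + 1) in each library minus the gene's mean over the 8 libraries, for the 10 genes, with anti-PD-L1 libraries left and IgG libraries right. In anti-PD-L1 1 and IgG 4, Sat1 and Azin1 are above the mean and Oaz3 is below it.

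Sat1, Azin1 and Sms were highest of their groups in both libraries that stood apart. On the log2 scale, the deviation from the gene's mean over the 8 libraries was 0.59 in anti-PD-L1 1 and 0.45 in IgG 4 for Sat1, and 0.26 in anti-PD-L1 1 and 0.36 in IgG 4 for Azin1. Oaz3 was lowest of its group in both, at -0.21 in anti-PD-L1 1 and -0.07 in IgG 4. Sms was at 0.34 in IgG 4 and at 0.15 in anti-PD-L1 1, near anti-PD-L1 4 at 0.15. Its largest deviation was -0.37, in anti-PD-L1 3. Oaz1 was at -0.29 in IgG 4, against 0.29 in IgG 2, and at -0.08 in anti-PD-L1 1, near anti-PD-L1 2 at -0.10. Mat2a, which makes S-adenosylmethionine, was also highest of its group in both libraries that stood apart, at 76.7 TPM in anti-PD-L1 1 and 87.3 TPM in IgG 4. Macrophage markers, of which 11 of 12 passed the filter and 0 were at 0 in all libraries, summed to 90.2 to 121 TPM in anti-PD-L1 libraries and 87.0 to 106 TPM in IgG libraries. Anti-PD-L1 1 had the highest sum and IgG 4 had 95.6 TPM, and the part of these cells in the results was not tested. The part of these libraries in the group differences shows in the values without both: 0.041 for Odc1, 0.064 for Amd1, 0.12 for Srm, 0.048 for Sms, -0.14 for Sat1, -0.10 for Oaz1, -0.02 for Oaz2, 0.14 for Azin1 and -0.12 for Azin2, none of them past an adjusted p of 0.05.

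The rest of the pathway was read from lists in which no gene passed an adjusted p of 0.05. Of 9 supply genes 4 were tested, 3 with differences above 0 and 1 below, among them Oat, which interconverts ornithine, at 38.8 ± 5.33 TPM in anti-PD-L1 libraries and 35.9 ± 4.18 TPM in IgG libraries. Arg1, Arg2, Agmat, Mat1a and Amd2 were below the filter in these testes. All 4 breakdown genes were tested, 3 above 0 and 1 below. Satl1, a relative of Sat1, averaged 27.2 ± 2.32 TPM in anti-PD-L1 libraries and 24.9 ± 0.614 TPM in IgG libraries, with an exact permutation p = 0.0857. Satl1 was thus more abundant than Sat1 in these libraries, at 26.0 TPM against 7.62 TPM over all 8. Smox, spermine oxidase, averaged 14.5 ± 3.3 TPM in anti-PD-L1 libraries and 14.5 ± 0.691 TPM in IgG libraries.

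Of 5 transport genes 3 were above 0 and 2 below. Atp13a2, a lysosomal polyamine exporter, averaged 17.9 ± 2.82 TPM in anti-PD-L1 libraries and 17.2 ± 2.7 TPM in IgG libraries. Atp13a4 had the widest difference of the lists, -0.57 (SE 0.344, exact permutation p = 0.2), with values from 1.35 to 5.28 TPM in anti-PD-L1 libraries and from 2.82 to 7.64 TPM in IgG libraries. Spermidine is also the donor for hypusine, the modified lysine of eIF5A. Eif5a averaged 570 ± 27.2 TPM in anti-PD-L1 libraries and 560 ± 17.3 TPM in IgG libraries, and Dhps, which transfers the spermidine group, 15.0 ± 3.08 TPM in anti-PD-L1 libraries and 13.97 ± 2.75 TPM in IgG libraries (SD, n = 4 each). Of these 4 genes 3 were above 0 and 1 below. The genes tested on the supply, breakdown, transport and hypusine lists held 0 with an unadjusted p under 0.05 by limma and 0 whose groups did not overlap.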

How the data were processed

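The deposited table gives TPM per gene for each of 8 libraries, as the authors computed it, per the file headers. CASAVA 1.8, HISAT2, StringTie, RSEM and mm10 are listed, without their roles, in the submitters' processing notes. Per the labels' protocols, RNA was TRIzol-extracted, treated with DNase I and made into TruSeq libraries. Depth is unknown, so no count intervals are given.

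In R 4.3.3 with limma 3.58.1, log2(TPM + 1) was fitted with an intensity trend over the 20343 genes that averaged 1 TPM or more, with Benjamini-Hochberg adjustment over all of them. Single genes had two-sided exact permutation tests over 70 assignments. The code was tested on simulated data with changes larger than those of the members. That test does not cover differences of their size. The rule for named genes took all members, allowed any tested gene of the other polyamine lists (some are given only in counts) and Prm1, Prm2, Tnp1 and Tnp2, and took the 5 genes most correlated with Oaz3 and with Odc1. Members and lists were chosen with earlier results of these data known. Shared sequence and coordinates came from GENCODE M21. Alternatives were pseudocount, filter, scaling, library weights, no trend, replicate block and libraries left out; summing genes with their pseudogenes and ratios without the libraries that stood apart were chosen after seeing the data.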

Additional observations from a re-analysis of the deposited data

How the results depend on the processing

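No member passed an adjusted p of 0.05 in any of 18 settings, and none had an unadjusted p under 0.05 by limma. Over the alternatives, 155 of 171 member values kept their sign and 16 did not; Amd1, Oaz3, Azin1 and Azin2 kept it throughout, though their sizes moved: with each library left out they ran from 0.019 to 0.084, -0.14 to -0.048, 0.0034 to 0.21 and -0.12 to -0.019, in that order. With TMM factors Odc1 was -0.012 and Srm -0.0043, and with quantile normalization Srm was -0.0041. Sms was 0.076 with array quality weights and 0.048 without both libraries that stood apart. In the other members, with each library left out, differences ran from -0.0074 to 0.051 for Odc1, -0.029 to 0.078 for Srm, -0.087 to 0.11 for Sms, -0.28 to 0.068 for Sat1, -0.12 to 0.069 for Oaz1 and -0.026 to 0.026 for Oaz2. The cause was not tested. Over all genes, 0 were called in the main setting, 1 with a pseudocount of 0.1, 5 with array quality weights, 9 without both libraries that stood apart, and 0 to 16 with a library left out, the most without IgG 4. With the replicate number as a block 0 were called. Same-numbered libraries correlated at -0.11, 0.10, 0.09 and -0.20 after group means were removed. These values cannot decide whether samples were paired, as libraries that stood apart enter those for numbers 1 and 4. Across groups, the highest such correlation was that of anti-PD-L1 1 with IgG 4, at 0.36. The median difference of all genes ran from -0.0069 to 0.06 over settings. Sms has no value under a filter of 5 TPM. Depth is unknown, so precision rests on 4 libraries a group.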
